A study of Homo sapiens with 12 samples.

Results

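The genes followed here were 8 members of the Notch pathway, namely the ligands DLL4 and JAG1, the receptors NOTCH1, NOTCH2 and NOTCH3, and the target genes HES1, HEY1 and HEYL. They were chosen by gene symbol from the deposited tables, whose count table lists 25702 genes, and all 8 were found in it. RNA had been sequenced from WI-38 cells, an established human lung fibroblast cell line that is used as a model of the change of fibroblasts into contractile myofibroblasts under the cytokine TGF-β. The 4 conditions were untreated cells on day 1 (D1), cells on day 1 with TGF-β at 2 ng/mL (D1+ TGF-β), untreated cells on day 20 (D20) and cells on day 20 with TGF-β (D20+ TGF-β), with 3 flasks in each. The labels give passages 2 to 3 for the day 1 cells and 5 to 6 for the day 20 cells. Cells were confluent when treatment began, and the day 20 flasks were reseeded on day 1 to reach about 90% confluence. Time in culture, passage, reseeding and density thus cannot be told apart in any comparison of the days. All flasks hold 1 cell line, and the D20 flasks of each treatment were grown from 1 treated and 1 untreated flask, so that on day 20 the treatment and the flask of origin cannot be told apart. The p-values therefore measure the spread between flasks of 1 line.

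Notch signalling passes between touching cells. A ligand of the Delta or Jagged family on one cell binds a Notch receptor on its neighbour, proteases of the ADAM family and then γ-secretase cut the receptor, and the freed intracellular part enters the nucleus, where it joins the DNA-binding protein RBPJ and switches on target genes such as those of the HES and HEY families. In the lung, Notch is known for its part in the fate of airway epithelial cells and in the coating of vessels by mural cells, which carry NOTCH3. The products of HES and HEY genes are transcriptional repressors.

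In the GRCh37 (hg19) annotation, DLL4 lies at chr15:41221538-41231271 on the plus strand and JAG1 at chr20:10618332-10654647 on the minus strand. The receptor genes NOTCH1 (chr9:139388885-139440500), NOTCH2 (chr1:120454176-120643366) and NOTCH3 (chr19:15269849-15311806) all lie on the minus strand. HES1 lies at chr3:193853937-193856521 on the plus strand, and HEYL at chr1:40089107-40105315 on the minus strand. The counts are sums over each whole gene. JAG1, NOTCH1, NOTCH2 and HEYL are each overlapped on the opposite strand by 1 long non-coding RNA gene, and MIR4673 lies inside NOTCH1 on the same strand. The counting program and its use of strand are not given in the sources used here, so reads of a gene and of its overlapping partner cannot be told apart.

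The stretch of 250 bases before the transcription start was read for 7 of the 8 members, all but HEY1, from RefSeq on GRCh38.p14, and searched on both strands for the core of the RBPJ site, TGGGAA, which reads TTCCCA on the other strand. The core was found before the starts of the target genes HES1 and HEYL and not before those of the 5 ligand and receptor genes, while 21.1% of all 27305 promoters of the same length held it. A match is a description of letters and not a bound site. The promoters of HES1 and HEYL are shown because they hold the core, and that of JAG1 because this ligand had the largest called decrease on day 20 among the members. Each runs 5′ to 3′ on the strand of its gene and ends at the base before the start, with the core in capitals.
HES1 (chr3:194135898-194136147): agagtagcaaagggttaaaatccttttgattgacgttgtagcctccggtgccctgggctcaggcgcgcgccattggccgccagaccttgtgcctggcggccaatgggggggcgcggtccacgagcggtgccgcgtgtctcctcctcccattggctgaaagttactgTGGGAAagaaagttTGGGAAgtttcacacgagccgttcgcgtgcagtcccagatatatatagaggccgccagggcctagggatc
HEYL (chr1:39639644-39639893): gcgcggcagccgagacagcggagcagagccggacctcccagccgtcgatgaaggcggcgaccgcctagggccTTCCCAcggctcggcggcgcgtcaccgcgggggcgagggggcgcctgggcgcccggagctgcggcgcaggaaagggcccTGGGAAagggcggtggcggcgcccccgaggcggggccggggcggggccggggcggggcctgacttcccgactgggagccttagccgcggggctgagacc
JAG1 (chr20:10674000-10674249): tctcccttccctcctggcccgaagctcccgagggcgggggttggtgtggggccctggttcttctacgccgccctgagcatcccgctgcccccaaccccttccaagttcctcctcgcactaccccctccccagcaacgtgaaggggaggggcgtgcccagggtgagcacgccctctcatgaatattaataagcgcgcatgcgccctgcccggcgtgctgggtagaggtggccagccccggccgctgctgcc
In HES1 the core begins at positions -84 and -70, counted from the start, both on the strand of the gene. In HEYL it begins at -99 on that strand, and its reverse complement at -178. The box CAGAC, the short motif bound by SMAD proteins, which carry the TGF-β signal, was held by 37.8% of all promoters, and among the 7 members by those of HES1 (at -170) and DLL4 (at -67, as GTCTG), overlapping no RBPJ core. The E-box CACGTG, a motif bound by many helix-loop-helix factors, was in none of the 7 and in 6.49% of all promoters.

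Library totals ranged from 8674488 to 18286197 counts. In 10 of the 12 libraries at most 1 of the 9490 genes tested lay more than 1 log2 unit above or below both other flasks of its condition. The exceptions were D1 flask 2, with 55 genes above and 27 below, and D20+ TGF-β flask 3, with 12 above and 76 below, so each call of a member that was gained or lost without them is given beside the value over all flasks. By the size of this gap DLL4 ranked 7 (1.98 log2 units) among the genes that stood above in D1 flask 2. ID3 had rank 1 (2.78) and ID1 rank 8 (1.92). Both encode inhibitors of helix-loop-helix factors and were named after their values were seen, and the remaining genes that stood above are not named here. ACTA2, the gene of α smooth muscle actin, rose 4.20-fold on day 1 (adjusted p = 2.28e-06) and was not called on day 20 (log2 fold change 0.13, adjusted p = 0.554), and COL1A1, a collagen gene, rose on day 1 and on day 20 (2.13-fold and 1.98-fold, adjusted p = 2.5e-05 and 2.39e-05). The 8 fibroblast markers looked for were all detected and summed to between 13416 and 22769 cpm (counts scaled to library size) per library. Of the 8 endothelial markers CDH5 was at 0 in every library and TEK, which encodes the angiopoietin receptor, made up most of the sum. Of the 6 epithelial markers KRT5 was at 0 in all 12 libraries and CDH1 and EPCAM were near 0, while KRT19 averaged 8.03 to 19.8 cpm by condition. Of the 5 blood markers CD3E was at 0 in all libraries, while CD68, which many cell types express at a low level, averaged 39.7 to 55.8 cpm, and CD14 reached a mean of 5.78 cpm at D20 and at most 0.342 cpm in the other conditions.

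Set against gene length, NOTCH2 was the most abundant member in all 4 conditions. Untreated cells held 21.0 ± 3.58 (SD, n = 3 here and in all means below) cpm per kb of exon on day 1 and 23.7 ± 0.592 on day 20, and treated cells 23.9 ± 1.18 and 17.8 ± 2.51. No flask of another member reached the NOTCH2 range in any condition but D1, where the highest DLL4 flask, at 19.5, stood above the lowest NOTCH2 flask, at 17.4. At D1 the members DLL4, NOTCH3 and JAG1 followed with mean levels of 9.40, 4.58 and 3.43, and neighbours in this order overlapped between flasks. NOTCH1 came next with 2.40, below every JAG1 flask. At D20 the order after NOTCH2 was JAG1 (5.71), NOTCH3 (4.52), DLL4 (4.31) and NOTCH1 (2.56), of which NOTCH3 and DLL4 overlapped. With TGF-β the order was NOTCH3, NOTCH1, JAG1 and DLL4 on day 1 (4.02, 1.85, 1.82 and 1.30) and DLL4, NOTCH3, NOTCH1 and JAG1 on day 20 (4.72, 2.01, 1.86 and 1.20). NOTCH1 and JAG1 overlapped on day 1, and DLL4 overlapped NOTCH3, and NOTCH3 overlapped NOTCH1, on day 20. The targets were the lowest in every condition by their means: HES1 lay between 0.114 and 1.39, HEY1 between 0.0626 and 1.03, and HEYL at or below 0.0534 cpm per kb.

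**Figure D1:**
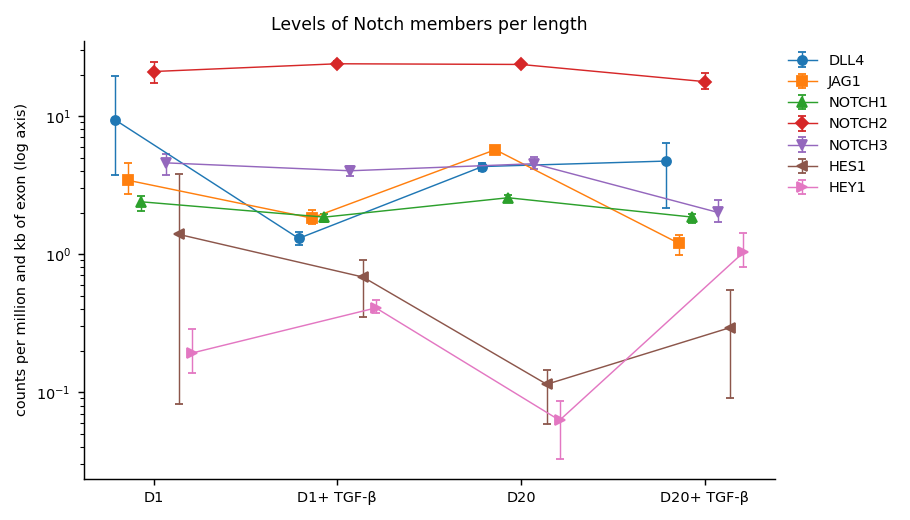
Mean level of 7 members (HEYL left out as near 0) in each condition, in cpm per kb of exon on a log axis, with bars from the lowest to the highest of 3 flasks; lines only join the means of 1 gene. NOTCH2 lies between 17.8 and 23.9 in all 4 conditions, and HEY1 runs from 0.0626 at D20 to 1.03 at D20+ TGF-β.

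A gene was tested when at least 6 of the 12 libraries held 10 cpm or more, and called at an adjusted p under 0.01 (edgeR quasi-likelihood test, Benjamini-Hochberg over all 9490 genes). Both ligands and the 3 receptors passed this filter, while HES1, HEY1 and HEYL did not, and their fold changes, where given, come from a fit of all 20434 genes with a count. The comparison of D1+ TGF-β with D1 called DLL4 and JAG1, both lower, beside 13.4% of all genes tested (6.5% lower). The comparison of D20+ TGF-β with D20 called JAG1, NOTCH1 and NOTCH3, all lower, beside 27.5% of all genes tested (14.7% lower). In the fit without the filter HEY1 was higher on day 20, beside 17.1% of all genes called in that fit, and neither HES1 nor HEY1 was called on day 1 (8.3% of all genes). The treated flasks all lay below the untreated ones for 3 of the 5 tested members on day 1, beside 18.8% of all genes tested, and for 4 of the 5 on day 20, beside 29.7%.

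**Figure D2:**
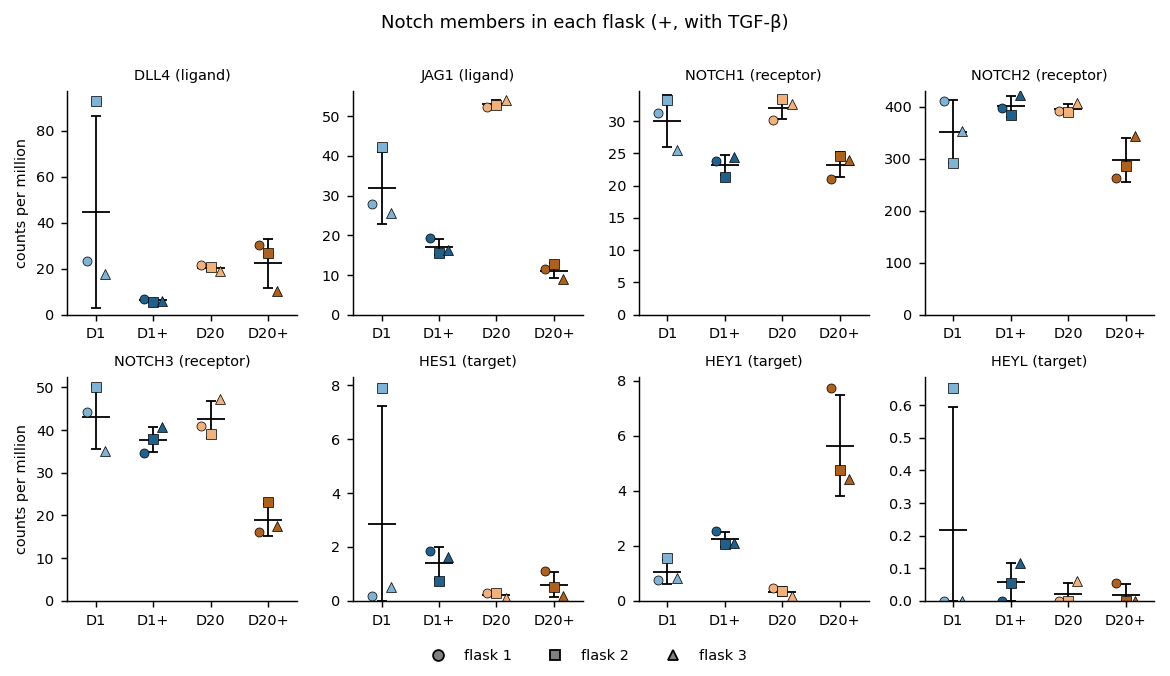
Level in cpm of the 8 members in every flask of the 4 conditions (+ marks TGF-β), with the mean and SD of 3 flasks as a dash and bars, the SD cut at 0 where it would reach below; each panel has its own axis from 0. The 3 flasks of JAG1 at D20 lie above 52 cpm and those at D20+ TGF-β below 13 cpm, and D1 flask 2 stands apart for DLL4, HES1 and HEYL.

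DLL4, the Delta ligand best known from sprouting vessels, had 23.5, 92.8 and 17.7 cpm in the D1 flasks 1 to 3 and 6.85, 5.52 and 6.17 cpm in the D1+ TGF-β flasks. All 3 treated flasks lay below all 3 untreated ones, and D1 flask 2 was 4.51 times the mean of the other D1 flasks. DLL4 fell 7.44-fold with TGF-β on day 1 (log2 fold change -2.90, SE 0.58, adjusted p = 0.00275). In bulk RNA of a flask, fewer cells with a transcript and less of it per cell cannot be told apart. Without D1 flask 2 the log2 fold change was -1.75 (SE 0.35) and still called (adjusted p = 0.00189), and without any 1 of the D1+ TGF-β flasks the call was lost (adjusted p = 0.0126, 0.0222 and 0.0128 without flask 1, 2 and 3). On day 20 DLL4 had 21.6, 20.8 and 19.0 cpm in the untreated flasks and 30.3, 26.7 and 10.3 cpm in the treated ones. The treated flasks lay on both sides of the untreated ones, with flask 3, one of the libraries that stood apart, below them. The log2 fold change on day 20 was 0.16 (SE 0.51, adjusted p = 0.827). It was 0.49 (adjusted p = 0.472) without D20+ TGF-β flask 3, and 0.51 (SE 0.11, adjusted p = 0.000863) when both libraries that stood apart were left out, which was then called.

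JAG1, the Jagged ligand that also acts between fibroblasts and vessel wall cells, had 27.8, 42.4 and 25.5 cpm in the D1 flasks and 19.3, 15.4 and 16.2 cpm in the D1+ TGF-β flasks. No treated flask reached an untreated one. JAG1 fell 1.90-fold on day 1 (log2 fold change -0.93, SE 0.17, adjusted p = 0.00162). It remained called without D1 flask 2, at -0.66, and lost the call without D1+ TGF-β flask 2 (adjusted p = 0.0156). On day 20 JAG1 had 52.3, 52.7 and 54.1 cpm in the untreated flasks and 11.4, 12.8 and 9.11 cpm in the treated ones. The untreated flasks were the highest and the treated ones the lowest of all 12 libraries. JAG1 fell 4.77-fold on day 20 (log2 fold change -2.25, SE 0.18, adjusted p = 5.04e-07), and its log2 fold change stayed between -2.35 and -2.13 under the 23 alternatives, in all of which it was called. The sum of the endothelial markers, nearly all of it TEK, was also lower with TGF-β. It was 45.7 to 79.5 cpm without and 34.8 to 41.2 cpm with TGF-β on day 1, and 219.6 to 246.8 against 77.0 to 150.0 cpm on day 20. The other endothelial markers had means of at most 1.30 cpm, and most held too few counts for a direction to be read. Summed over 3 flasks, PECAM1 had 3 counts without and 5 with TGF-β on day 1, and 2 and 10 on day 20. In the same order KDR had 4 and 3, then 14 and 28, and TIE1 had 14 and 30, then 7 and 6. CLDN5 had 3 and 2, then 6 and 4, and VWF had 51 and 31, then 45 and 48. ERG had 3 counts at D20+ TGF-β and 0 elsewhere, and CDH5 was at 0. The part of these markers in the JAG1 result was not tested.

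NOTCH1 had 31.2, 33.3 and 25.5 cpm in the D1 flasks and 23.8, 21.4 and 24.5 cpm in the D1+ TGF-β flasks. The treated flasks all lay below the untreated ones, by a narrow margin at D1 flask 3, and the log2 fold change of -0.38 (SE 0.11) was not called (adjusted p = 0.0199). It was called under 3 of the 23 alternatives, among them the fit without D1 flask 3, at -0.48 (adjusted p = 0.00379). On day 20 NOTCH1 had 30.1, 33.5 and 32.7 cpm without and 21.1, 24.6 and 24.0 cpm with TGF-β. Again no flask overlapped, and NOTCH1 fell 1.39-fold (log2 fold change -0.47, SE 0.11, adjusted p = 0.00299). The call was lost without D20 flask 2, D20 flask 3 or D20+ TGF-β flask 1 (adjusted p = 0.0156, 0.0137 and 0.0260).

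NOTCH2 had 411, 291 and 353 cpm at D1 and 397, 383 and 422 cpm at D1+ TGF-β. These ranges overlapped, with a log2 fold change of 0.19 (SE 0.12, adjusted p = 0.269). On day 20 it had 392, 389 and 407 cpm without TGF-β and 263, 285 and 344 cpm with it. All treated flasks lay below the untreated ones, and the log2 fold change of -0.41 (SE 0.12) missed the threshold (adjusted p = 0.0124). It passed under 8 of the 23 alternatives, among them the fit without D20+ TGF-β flask 3, at -0.53 (adjusted p = 0.00242), and that without D1 flask 2 (adjusted p = 0.00253). NOTCH2NL, a partial copy of NOTCH2 with nearly identical sequence, had between 9.60% and 14.7% of the NOTCH2 level in every library, so that part of the NOTCH2 reads may have come from it or gone to it.

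NOTCH3, the receptor of pericytes and smooth muscle cells, had 44.2, 50.0 and 35.1 cpm at D1 and 34.7, 37.8 and 40.8 cpm at D1+ TGF-β. The flasks overlapped and the log2 fold change was -0.19 (SE 0.14, adjusted p = 0.345). On day 20 NOTCH3 had 41.0, 39.2 and 47.3 cpm without TGF-β and 16.1, 23.1 and 17.5 cpm with it. The treated flasks were the 3 lowest of all 12 libraries. NOTCH3 fell 2.28-fold (log2 fold change -1.19, SE 0.15, adjusted p = 3.43e-05) and was called under all 23 alternatives. The 6 smooth muscle and pericyte markers summed to between 504 and 513 cpm at D20 and between 495 and 554 cpm at D20+ TGF-β, and most of this sum was ACTA2. Its members did not move alike. CNN1, the gene of calponin, lay lower with NOTCH3 in every treated flask (52.1 to 52.6 against 35.6 to 44.2 cpm, adjusted p = 0.00509), and so did CSPG4, a pericyte proteoglycan gene, without a call (149.9 to 159.2 against 89.9 to 139.1 cpm, adjusted p = 0.0151). RGS5, a pericyte gene, rose from a mean of 18.0 to 66.0 cpm (adjusted p = 0.00189), with D20+ TGF-β flask 3 among the untreated flasks at 19.4 cpm, and MYH11 and DES stayed below 1.1 cpm on day 20. The part of these markers in the NOTCH3 result was not tested.

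HEY1, a repressor gene on chromosome 8 and a direct target of Notch receptors in many cell types, was low in all conditions. It had 9, 24 and 10 counts in the D1 flasks (0.760, 1.57 and 0.836 cpm) and 22, 37 and 18 counts in the D1+ TGF-β flasks (2.56, 2.06 and 2.10 cpm). The treated flasks lay above the untreated ones, and the log2 fold change of 1.00 (SE 0.33) was not called (adjusted p = 0.0409). Without D1 flask 2 it was 1.46 and called (adjusted p = 0.00504). On day 20 HEY1 had 5, 5 and 3 counts without TGF-β (0.477, 0.373 and 0.180 cpm) and 138, 47 and 47 counts with it (7.75, 4.75 and 4.42 cpm). The 3 treated flasks were the highest and the untreated ones the lowest of all 12 libraries. HEY1 rose 17.6-fold on day 20 (log2 fold change 4.14, SE 0.36, adjusted p = 7.92e-10), and its log2 fold change lay between 3.76 and 4.37 under the 21 alternatives, all called.

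HES1, the best known HES target of Notch and one that other pathways also control, had 2, 121 and 6 counts in the untreated and 16, 13 and 14 in the treated flasks of day 1, and 3, 4 and 2 against 20, 5 and 2 on day 20. Most counts of the untreated flasks came from D1 flask 2, which at 7.90 cpm had 23.6 times the mean of the other D1 flasks. The log2 fold change with TGF-β on day 1 was -1.26 (SE 0.68, adjusted p = 0.275) over all flasks and 1.90 (SE 0.62, adjusted p = 0.0288) without D1 flask 2, so that its sign turned on 1 library. Without both libraries that stood apart it was 1.88 and called (adjusted p = 0.00384). On day 20 the log2 fold change was 1.58 (SE 1.16, adjusted p = 0.38) with overlapping flasks, and it was called, at 1.94 (adjusted p = 0.0032), when both libraries that stood apart were left out. HEYL, a HEY family gene of smooth muscle, had 0, 10 and 0 counts at D1, and at most 1 count in each of the other 9 libraries. No fold is given for it, since these counts, D1 flask 2 apart, are under a floor of 3 counts per library.

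**Figure D3:**
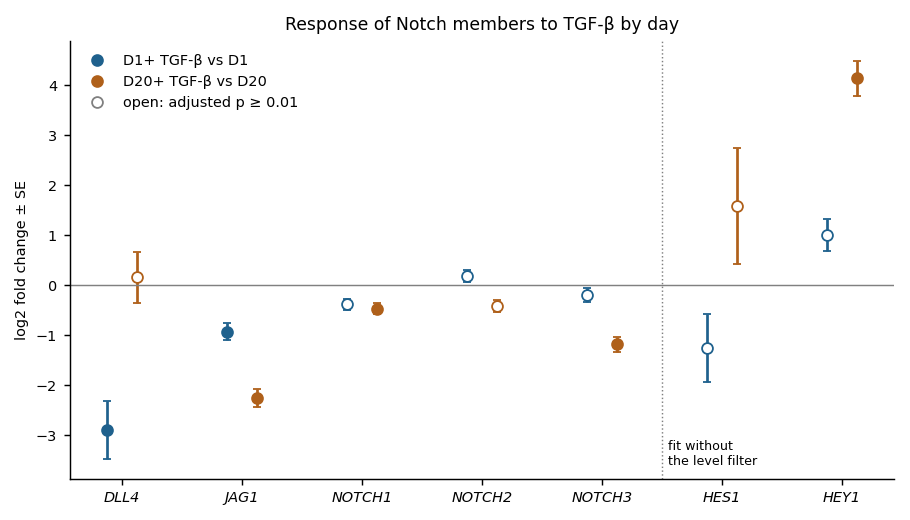
Log2 fold change with TGF-β on day 1 and on day 20 with its standard error for 7 members; filled points have an adjusted p under 0.01, and points right of the dotted line come from the fit without the level filter. JAG1 lies at -0.93 and -2.25, NOTCH3 at -0.19 and -1.19, and HEY1 at 1.00 and 4.14.

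Between days, untreated cells differed in JAG1 alone among the 5 members tested, in a comparison that called 36.4% of all genes tested (18.9% higher). JAG1 was 1.65-fold higher at D20 than at D1 (log2 fold change 0.73, SE 0.16, adjusted p = 0.00185), with every D20 flask above every D1 flask, as in 29.4% of all genes tested. It missed the threshold without D1 flask 1 (adjusted p = 0.0103). The 3 receptors had log2 fold changes between -0.02 and 0.17. DLL4 had -1.15 (SE 0.49, adjusted p = 0.0669), which became -0.01 without D1 flask 2. In the fit without the filter, which called 22% of all genes, HEY1 fell by 1.80 on the log2 scale (SE 0.46, adjusted p = 0.00313), with a value of -1.34 and no call without D1 flask 2 (adjusted p = 0.0482) and no call without D20 flask 3 either (adjusted p = 0.0339). HES1 had a called log2 fold change of -3.79 that was -0.62 without D1 flask 2 (adjusted p = 0.617).

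Among treated cells, D20+ TGF-β against D1+ TGF-β called NOTCH2 and NOTCH3, both lower, beside 34.8% of all genes tested (17.7% lower). NOTCH3 fell 2.02-fold (log2 fold change -1.01, SE 0.15, adjusted p = 0.000118). NOTCH2 fell 1.35-fold (log2 fold change -0.43, SE 0.12, adjusted p = 0.0083), a call that was lost under 11 of the 23 alternatives, at adjusted p up to 0.0418. In both genes every later flask lay below every earlier one, as it did for JAG1 and for 31.5% of all genes tested, while 31.7% of all genes had every later flask above, DLL4 among them. All 3 DLL4 values at D20+ TGF-β lay above those at D1+ TGF-β, with a log2 fold change of 1.90 (SE 0.60, adjusted p = 0.0177), and DLL4 was called without D1 flask 2 (1.92, adjusted p = 0.000195) and without D20+ TGF-β flask 3 (2.24, adjusted p = 0.00538). JAG1 was lower in every D20+ TGF-β flask, at -0.60 (SE 0.19, adjusted p = 0.0176). It was called without D1 flask 2 (-0.59, adjusted p = 0.00103) and without both libraries that stood apart (-0.49, adjusted p = 0.00119), and not without D20+ TGF-β flask 3 alone (adjusted p = 0.0578). HEY1 rose 2.52-fold in the fit without the filter (log2 fold change 1.34, SE 0.26, adjusted p = 0.000262, beside 21.2% of all genes called), and its adjusted p was 0.0101 without D20+ TGF-β flask 1. NOTCH1 had a log2 fold change of 0.00 (SE 0.11).

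The TGF-β responses of the 2 days were compared with each other as a difference, day 20 minus day 1, in the same fit, which called 10.4% of all genes tested (5.87% lower). JAG1 had a difference of -1.32 (SE 0.25, adjusted p = 0.00221) and NOTCH3 one of -0.99 (SE 0.20, adjusted p = 0.00404), both from a more negative response on day 20. The difference of NOTCH3 was not called without D1+ TGF-β flask 2, D1+ TGF-β flask 3, D20 flask 3 or D20+ TGF-β flask 1, at adjusted p from 0.0129 to 0.0149. HEY1 had a difference of 3.13 (SE 0.53, adjusted p = 0.000143) in the fit without the filter, which called 6.43% of all genes. DLL4, at 3.05 (SE 0.78, adjusted p = 0.0135), and NOTCH2, at -0.60 (SE 0.17, adjusted p = 0.0208), missed the threshold. DLL4 passed it without D1 flask 2, with a smaller difference of 1.93 (adjusted p = 0.00475), and without D20+ TGF-β flask 3 (3.39, adjusted p = 0.00436). NOTCH2 passed it under 5 of the 22 alternatives, among them the fits without D20+ TGF-β flask 3 (-0.72, adjusted p = 0.00427) and without both libraries that stood apart (-0.59, adjusted p = 0.00018), and missed it without D1 flask 2 (-0.48, adjusted p = 0.0176). NOTCH1 had -0.09 (SE 0.15, adjusted p = 0.705).

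Of 69 other genes of the pathway, listed by role, 45 passed the filter. TGF-β called 9 of them on day 1 (2 higher, 7 lower), which is 20% beside 13.4% of all genes tested, and 15 on day 20 (6 higher, 9 lower), which is 33.3% beside 27.5%. Without D1 flask 2 the day 1 count was 15, beside 19.8% of all genes, and without both libraries that stood apart it was 17, beside 27.8%. Their median log2 fold change was -0.01 on day 1 and 0.05 on day 20, and that of all genes tested -0.02 and 0.01. The remaining ligands and the remaining receptor were low: the mean levels of DLL1, DLL3, JAG2 and NOTCH4 reached at most 1.98 cpm in any condition. DLL1 had 1 to 3 counts in each day 1 library and 8 to 40 counts in each day 20 library. The 8 tested genes of the nuclear complex, which holds RBPJ and its coactivators, had 0 calls in each of the 4 comparisons and in the difference. Of these 8, 3 and 4 had an unadjusted p under 0.05 with TGF-β on day 1 and day 20, beside 3498 and 4655 of all 9490 genes. The counts were 2 and 2 between the untreated and between the treated days (5412 and 5314 of all genes), and 1 in the difference (3267 of all genes). RBPJ itself had 159 ± 29.6 cpm without and 227 ± 0.604 cpm with TGF-β on day 1, and 178 ± 10.2 against 239 ± 38.0 cpm on day 20 (log2 fold change 0.52 and 0.42, adjusted p = 0.01001 and 0.0169). It was called on both days by DESeq2 and on day 1 by limma-voom, and neither tool called another gene of the complex.

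Among the proteases that cut Notch receptors, ADAM10, which makes the first cut after ligand binding, fell from 293 ± 20.2 to 204 ± 10.2 cpm on day 1 and from 535 ± 6.80 to 283 ± 17.3 cpm on day 20 with TGF-β (log2 fold change -0.52 and -0.92, adjusted p = 0.000224 and 6.38e-07). In all, 2 of the 9 proteases tested were called on day 1 and 3 on day 20, all lower, which is 22.2% and 33.3% beside 13.4% and 27.5% of all genes tested. Of 10 genes of endocytosis and turnover, 3 were called on day 1, all lower, and 6 on day 20, of which 4 were lower, which is 30% and 60% beside the same shares of all genes. DTX4 and DTX3L, genes of the Deltex family of ubiquitin ligases, fell on both days, DTX4 by 1.47 and 1.64 and DTX3L by 0.86 and 1.10 on the log2 scale (adjusted p = 2.76e-05, 2.12e-06, 0.000234 and 7.94e-06). Of the 11 corepressors, 1 was called on day 1 and 2 on day 20, which is 9.09% and 18.2% beside 13.4% and 27.5% of all genes tested. HDAC1, which encodes a histone deacetylase, fell by 0.34 and 0.55 on the log2 scale (adjusted p = 0.003 and 3.55e-05), HDAC2 rose on day 20, and the others were not called. The only tested gene among further targets, BHLHE40, a helix-loop-helix repressor gene that also answers to other signals, rose from 20.3 ± 2.05 to 60.6 ± 7.62 cpm on day 1 and from 16.7 ± 0.355 to 44.2 ± 1.59 cpm on day 20 (log2 fold change 1.57 and 1.40, adjusted p = 2.16e-07 and 2.92e-07). NOV, which encodes a matricellular protein that can bind NOTCH1, fell on day 1 by 1.40 on the log2 scale (adjusted p = 7.64e-07) and had a log2 fold change of 0.33 on day 20.

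**Figure D4:**
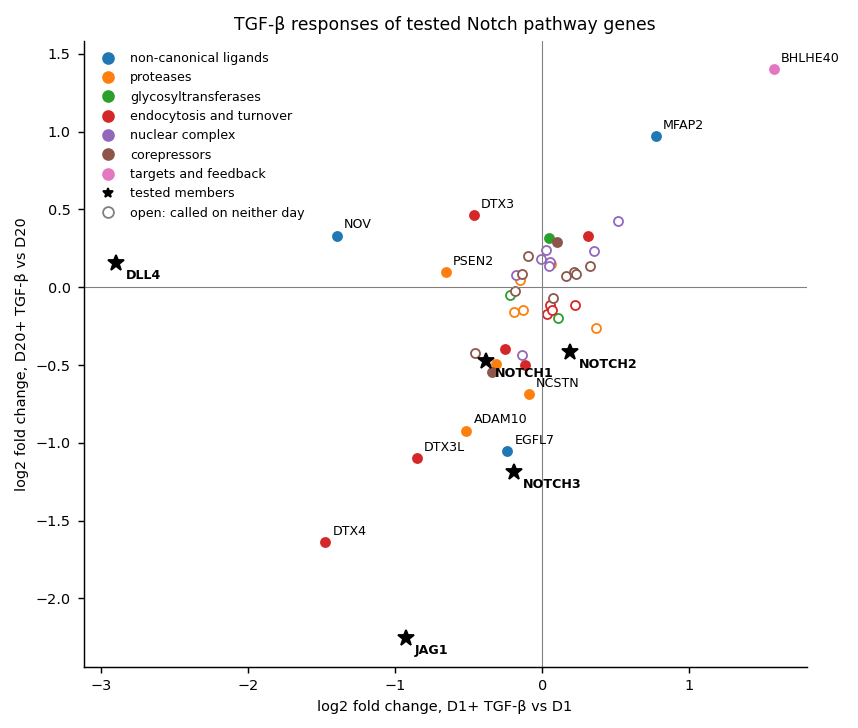
Log2 fold change with TGF-β on day 1 (horizontal) and on day 20 (vertical) of the 45 tested pathway genes, coloured by role, and of the 5 tested members (stars); filled circles were called on at least 1 day. BHLHE40 stands at 1.57 and 1.40, DTX4 at -1.47 and -1.64, and the genes of the nuclear complex are all open.

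Between untreated days, 14 of the 45 pathway genes were called (12 higher at D20), which is 31.1% beside 36.4% of all genes tested, and the 5 with the smallest adjusted p were ADAM10, DTX3L, NUMBL, an adaptor gene of the NUMB family, and DTX4, which were higher at D20 (log2 fold changes 0.87, 0.99, 0.78 and 1.03), and NOV, which was lower (-1.17). Between treated days 16 were called (11 higher), which is 35.6% beside 34.8%, led by the Deltex family gene DTX3 (log2 fold change 1.15) and by FURIN, the convertase that cleaves Notch receptors in the Golgi (-0.82), and followed by NUMBL, ADAM10 and the corepressor gene CIR1 (0.63, 0.47 and 0.65). The TGF-β responses of the days differed in 5 of the 45, 11.1% beside 10.4%: NOV, DTX3 and the presenilin gene PSEN2 had higher values on day 20, and NCSTN, which encodes the nicastrin subunit of γ-secretase, and FURIN had lower ones. This count was 8 without D1 flask 2, beside 18.1% of all genes tested. It was 3 without D1+ TGF-β flask 2, D20 flask 2 or D20 flask 3, beside 5.79%, 6.56% and 5.91% of all genes, and also 3 without D1+ TGF-β flask 3.

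Across the 12 libraries the tested gene whose log2 cpm correlated most with JAG1 was CCND3 (Pearson r = 0.978), a cyclin gene, followed by NID2 (r = 0.977), a basement membrane gene. For DLL4 these were CLIP2 (r = 0.958) and SMOX (0.955), for NOTCH1 KANK1 (0.981) and ZNFX1 (0.952), for NOTCH2 EPG5 (0.937) and FAM129B (0.936), and for NOTCH3 SH3BP4 (0.960) and MYADM (0.953). For the low members they were SEL1L3 (0.962) and DOCK4 (0.958) with HEY1, TRIB1 (0.926) and PAG1 (0.915) with HES1, and CERK (0.911) and SSH1 (0.901) with HEYL. The values for HEYL rested on D1 flask 2, being 0.625 and 0.279 without it, while those of HES1 became 0.847 and 0.836 and those of the other members stayed at 0.924 or more. These coefficients describe 12 points that share 4 conditions, and genes with r over 0.9 made up between 0.0211% and 1.24% of all genes tested for any 1 member.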

How the data were processed

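RNA of 12 flasks of WI-38 cells had been sequenced in paired ends on 4 lanes per library from a directional kit. The authors trimmed reads with Trimmomatic, mapped them to hg19 with Rsubread and deposited raw counts per gene and lane, together with log2 cpm values from limma voom for 9412 genes; the counting program is not given in the sources used here. Here the 4 lanes were summed, 2003 of the 25702 rows had an identifier but no gene name, and library totals had a median of 11613084.5 counts. edgeR 4.0.16 in R 4.3.3 (TMM factors, quasi-likelihood F test, 1 mean per condition over 12 libraries) was run on genes with at least 10 cpm in 6 or more libraries. Each standard error was derived as |log2 fold change| / √F. Log2 cpm used a prior count of 2. The errors between flasks include counting error. Positions and lengths come from GENCODE on GRCh37. The alternatives used DESeq2 1.42.0, limma 3.58.1, other scalings and filters, lanes as samples, the deposited log2 values, and subsets of libraries. On simulated counts with 200 of 9490 genes changed by 1 log2 unit, 99% were recovered for D20+ TGF-β vs D20 and 88.5% for the difference of responses. These counts were drawn from the fitted dispersions, with the same mean in all conditions for every other gene. The rates therefore do not give the power for smaller changes or for libraries that stand apart. The members and gene lists were chosen with earlier results of these data known. Genes named are the 8 members, in each comparison the 5 called pathway genes with the smallest adjusted p, the 2 genes most correlated with each member, a few TGF-β targets, markers, copies and overlapping genes; DLL1, RBPJ, HDAC2, ID1 and ID3 were added after their values were seen. No deposited column was left without a sample.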

Additional observations from a re-analysis of the deposited data

Results flagged for a closer look

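The TGF-β responses of the 2 days were compared by the test of the difference itself (day 20 minus day 1, log2 scale, edgeR with Benjamini-Hochberg adjustment). They differed for 2 of the 5 members tested and for 5 of the 45 other pathway genes tested (11.1%), beside 10.4% of all genes tested. HEY1 differed in the fit without the level filter, which called 6.43% of all genes. JAG1 had -1.32 (adjusted p = 0.00221), with all 3 treated flasks below all untreated flasks on both days. NOTCH3 had -0.99 (adjusted p = 0.00404), with overlapping flasks on day 1 and all 3 treated flasks lower on day 20. HEY1 had 3.13 (adjusted p = 0.000143) in the fit without the level filter, where its untreated day 20 flasks held 3 to 5 counts each. NOV had 1.73 (adjusted p = 7.78e-06), DTX3 0.93 (adjusted p = 0.000563), with log2 fold changes of -0.47 on day 1 and 0.46 on day 20, and PSEN2 0.76 (adjusted p = 0.0027). FURIN had -0.63 (adjusted p = 0.00863) and NCSTN -0.60 (adjusted p = 0.00385).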

How the results depend on the processing

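Of 778 values of the members' log2 fold changes under alternatives, 679 kept their direction and side of the threshold, 34 lost the call, 46 gained it and 19 changed sign. In what follows the 4 comparisons are the TGF-β response on day 1 and on day 20, treated days and untreated days, with the difference of responses last. As reported, 2, 3, 2, 1 and 2 members were called. This became 1 on day 1 with limma-voom, 1 between treated days with the deposited log2 values and without composition factors, 4 there with DESeq2 and with the 6 libraries compared, 4 for the difference with DESeq2, and 2 between untreated days with filterByExpr. Without the gene filter it was 5 on day 20, 5 between treated days, 3 between untreated days and 4 for the difference. That fit counts all 8 members and not only the 5 that passed the filter. HES1 and HEY1 can thus add to its counts, as they can with filterByExpr. With lanes as samples, which repeat 1 RNA, it was 4 on day 1, 4, 3 and 4 in the last 3, and pathway genes called were 24, 28, 30, 27 and 16. Leaving out each library in turn gave 0 to 3, 2 to 4, 1 to 4, 0 to 1 and 1 to 4 members and 7 to 15, 10 to 16, 12 to 20, 11 to 18 and 3 to 8 pathway genes. Without D1 flask 2 and D20+ TGF-β flask 3 together, an alternative chosen after seeing the data, members called were 5 on day 20, 4 between treated days and 4 for the difference, and pathway genes 17 on day 1 and 9 for the difference. That fit called 27.8% of all genes on day 1, 36.1% on day 20, 47.3% between treated days and 23.9% for the difference. The share of all genes called ranged from 6.52% to 41.4%, 17.1% to 54.8%, 21.2% to 60.8%, 22% to 62.6% and 5.79% to 39.3%.

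Signs changed for HES1 on day 1 (0.11 with limma-voom, 0.058 with lanes, 1.88 without both libraries), for NOTCH1 in the difference (0.015 without composition factors) and between treated days (-0.041 without the filter, -0.040 with filterByExpr, -0.033 without both libraries) and for NOTCH3 between untreated days (0.090 without both). Leaving out 1 library or both gave HES1 -1.78 to 1.90 on day 1 and -0.34 to 3.37 in the difference, NOTCH1 -0.060 to 0.073 between treated days, -0.0072 to 0.18 between untreated days and -0.20 to 0.010 in the difference, NOTCH3 -0.15 to 0.11 between untreated days, and DLL4 -0.13 to 0.51 on day 20. The cause was not tested, apart from the library named where leaving it out moved the value. Replicate numbers are not stated to pair flasks, and deviations of same-numbered flasks correlated between -0.22 and 0.32 in 18 pairs. With the replicate block, members called were 2, 3, 3, 1 and 2, and of the members' calls only that of DLL4 between treated days changed (1.92, adjusted p = 0.00828). The order of levels kept 108 to 112 of 112 pairs of members under other scalings and lengths. Depth limits HES1, HEY1 and HEYL, whose libraries often hold under 10 counts.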
